A study of Mus musculus with 18 samples.

Results

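The genes described here are 30 genes of cholesterol supply and removal, measured by RNA sequencing in mouse bone marrow-derived macrophages. They were chosen by name, with earlier results of these data known. The set comprises 20 genes of sterol synthesis and its control and 10 genes of the liver X receptors (LXR). The latter are the receptor gene Nr1h3 and genes known as LXR targets. All 30 were found by gene ID among the 56953 IDs of the deposited count table, and all 30 were among the 13068 genes with enough reads to test. The sterol synthesis genes are Acat2, Hmgcs1, Mvk, Pmvk, Mvd, Idi1, Fdps, Fdft1, Sqle, Lss, Cyp51, Msmo1, Nsdhl, Hsd17b7, Ebp, Sc5d, Dhcr7, Insig1, Srebf2 and Stard4. The LXR genes are Abca1, Abcg1, Mylip, Nr1h3, Srebf1, Scd2, Lpcat3, Pltp, Smpdl3a and Acsl3.

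Cells control their cholesterol with a pair of opposed programs. When sterol in the endoplasmic reticulum is low, the protein SCAP carries the transcription factor SREBP2, encoded by Srebf2, to the Golgi, where it is cut free to enter the nucleus and switch on the enzymes that build cholesterol from acetyl-CoA. Insig1 encodes a protein that holds SCAP back when sterol is plentiful. When sterol is high, oxysterols bind LXR, which pairs with the retinoid X receptor (RXR) and switches on cholesterol exporters and genes of fatty acid synthesis. In macrophages, which take up the membranes of other cells, the LXR program is best known for cholesterol efflux and for crosstalk with inflammatory signalling.

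The macrophages came from C57BL/6J mice, called B6, or from knock-in mice whose kinase RIPK1 carries the T169A change, an alanine in place of a threonine. They were grown for 7 days in medium with 20% serum and 30% L929 cell supernatant, a source of macrophage growth factor, and were left unstimulated, given LPS (the bacterial lipopolysaccharide sensed by TLR4) for 2 h, or given LPS and 5z7 for 2 h. The label 5z7 is a common short form of 5Z-7-oxozeaenol, which blocks the kinase TAK1. The study compared both treatments in both genotypes, with 3 libraries in each of the 6 groups and 18 libraries in all. The labels give no dose, and the titles carry a letter, A to C in B6 and D to F in T169A, without saying whether it marks a mouse, so p-values here reflect library-to-library spread, which may be technical. Counts cannot show the amino acid change, so the genotype labels were not checked.

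Assigned reads per library ranged from 14645076 to 30425934. Libraries are numbered here as in the deposited table: 1, 4 and 7 are unstimulated B6, 2, 5 and 8 are B6 with LPS, 3, 6 and 9 are B6 with LPS/5z7, and 10 to 18 are T169A in the same order. Values listed for a group follow these numbers. Levels are in CPM (counts-per-million) after trimmed mean (TMM) scaling. All 8 macrophage markers checked were present, with a summed level of 31900 to 44900 CPM per library. Summed neutrophil markers were at 14.6 to 27.9 CPM in unstimulated libraries, 29.2 to 47.4 CPM with LPS and 19.1 to 42.1 CPM with LPS/5z7. T cell markers, of which 1 of 5 had enough reads to test, summed to 0.0408 to 0.295 CPM in unstimulated libraries and 0.946 to 3.75 CPM in stimulated ones, without overlap, and fibroblast markers to 3.04 to 12.2 CPM. Cd3e, Cpa3, Fcer1a, Lep and Hba-a1, markers of other cell types, had no read in any library. The part of these markers in the changes described here was not tested. In such bulk samples, fewer cells of a type and less RNA per cell cannot be told apart. Library 7 stood apart: over the 12811 tested genes with a known exon length, the 20% with the longest exons minus the 20% with the shortest deviated from the group mean by a log2 value of -0.65, against -0.25 to 0.35 in the other libraries. Libraries 7, 8 and 9 also differed from the other B6 libraries in Pltp, as given with that gene.

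Promoter sequence for 23 of the 30 genes, 16 of synthesis and 7 of the LXR set, was read from RefSeq on GRCm38.p6, as the 250 bases before an annotated gene start. Both strands were searched for the sterol regulatory element bound by SREBP (TCANNCCAC), for the CCAAT box bound by NF-Y, a frequent partner of SREBP, and for an LXR element, written as GGTNANNNNNGGTNA. The LXR element was in the promoters of Abca1, Acsl3 and Srebf1, 3 of 7 LXR genes (42.9%), in 0 of 16 synthesis genes and in 0.707% of the 27025 genes in the promoter table. The CCAAT box was in 15 of 16 synthesis genes (93.8%), in 5 of 7 LXR genes (71.4%) and in 37.5% of all genes. The sterol regulatory element was in 1 of 16 synthesis genes, Hmgcs1, and 1 of 7 LXR genes, Mylip, against 4.06% of all genes. A match is a description of letters and not a bound site, and a window without a match says only that these letters are not in it. These 6 promoters are shown to set genes with an LXR element, which among the 23 members read was in LXR genes alone, beside synthesis genes with the CCAAT box, which both sets carry: the LXR genes Abca1, Acsl3 and Srebf1, whose transcripts responded differently to LPS, and the synthesis genes Hmgcs1, Idi1 and Mvd, of which the first pair rose and the last fell. Each reads 5′ to 3′ toward the start, and capitals mark an LXR element, a sterol regulatory element or a CCAAT box on either strand (ATTGG is CCAAT on the other strand).
Abca1, chr4:53159896-53160145 (minus strand): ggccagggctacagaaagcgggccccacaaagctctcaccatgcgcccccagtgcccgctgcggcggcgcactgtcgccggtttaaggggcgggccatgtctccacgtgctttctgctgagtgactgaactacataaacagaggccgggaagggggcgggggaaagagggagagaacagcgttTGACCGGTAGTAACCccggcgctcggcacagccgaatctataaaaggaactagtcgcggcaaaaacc
Acsl3, chr1:78657575-78657824 (plus strand): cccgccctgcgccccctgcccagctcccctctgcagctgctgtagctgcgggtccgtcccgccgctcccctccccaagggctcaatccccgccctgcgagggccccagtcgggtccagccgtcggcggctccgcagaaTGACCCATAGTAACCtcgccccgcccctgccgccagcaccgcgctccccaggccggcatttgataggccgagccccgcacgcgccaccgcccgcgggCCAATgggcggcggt
Srebf1, chr11:60210472-60210721 (minus strand): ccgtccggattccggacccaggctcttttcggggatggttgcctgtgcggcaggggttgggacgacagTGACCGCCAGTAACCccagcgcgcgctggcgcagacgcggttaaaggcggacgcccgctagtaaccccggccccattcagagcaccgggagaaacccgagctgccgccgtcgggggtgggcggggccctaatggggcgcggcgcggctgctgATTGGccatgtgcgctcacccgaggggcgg
Hmgcs1, chr13:119690101-119690350 (plus strand): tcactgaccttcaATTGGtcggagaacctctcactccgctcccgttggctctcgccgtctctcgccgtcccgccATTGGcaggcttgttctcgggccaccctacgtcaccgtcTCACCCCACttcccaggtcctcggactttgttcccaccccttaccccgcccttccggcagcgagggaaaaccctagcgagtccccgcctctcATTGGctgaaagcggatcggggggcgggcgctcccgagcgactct
Idi1, chr13:8885356-8885605 (plus strand): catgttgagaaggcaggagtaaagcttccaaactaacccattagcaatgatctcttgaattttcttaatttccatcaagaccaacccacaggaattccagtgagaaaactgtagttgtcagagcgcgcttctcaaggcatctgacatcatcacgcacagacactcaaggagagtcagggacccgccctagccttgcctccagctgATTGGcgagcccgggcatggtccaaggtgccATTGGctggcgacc
Mvd, chr8:122443423-122443672 (minus strand): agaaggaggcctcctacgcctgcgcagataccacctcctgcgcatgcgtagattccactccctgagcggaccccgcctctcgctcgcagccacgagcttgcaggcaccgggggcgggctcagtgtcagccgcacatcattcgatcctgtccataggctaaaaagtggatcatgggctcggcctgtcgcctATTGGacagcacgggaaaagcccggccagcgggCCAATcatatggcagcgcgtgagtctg
Read on the minus strand of these stretches, the LXR element of Abca1 is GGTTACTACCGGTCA, that of Acsl3 is GGTTACTATGGGTCA and that of Srebf1 is GGTTACTGGCGGTCA. The element lies 67 to 53 bases before the start in Abca1, 112 to 98 bases in Acsl3 and 182 to 168 bases in Srebf1. Srebf1 has other annotated starts, with windows at chr11:60220628-60220877 and chr11:60222582-60222831, and neither window holds the element. The sterol regulatory element of Hmgcs1, TCACCCCAC, lies 137 to 129 bases before the start.

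The question of what LPS alone does was put to each genotype on its own. In B6 macrophages, LPS split the synthesis genes. The regulator Srebf2 and 7 more genes, with Idi1 and Hmgcs1 in the lead, rose by up to a log2 fold change of 1.12, while Mvd, Lss, Dhcr7 and Mvk fell. Of the LXR genes, Scd2, Acsl3, Mylip, Abcg1 and Nr1h3 fell, and the exporter Abca1 did not pass. At an adjusted p under 0.05 in edgeR's quasi-likelihood test, 8 of the 20 synthesis genes were higher and 4 lower with LPS, and 1 of the 10 LXR genes was higher and 5 lower. Among all 13068 genes, 29.6% were called higher and 33.5% lower, so calls in either direction were common among genes at large. The median log2 fold change was 0.02 over the synthesis genes and -0.49 over the LXR genes, against -0.07 over all genes.

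In T169A macrophages 7 synthesis genes were higher and 4 lower with LPS, and 1 LXR gene was higher and 5 lower, against 30.3% of all genes higher and 31.5% lower. The medians were 0.03 for synthesis, -0.30 for the LXR genes and -0.03 for all genes. The same genes were called in both genotypes, except Hsd17b7, called higher in B6 alone. A test of the difference between the genotypes' LPS effects called none of the 30, and 0 of 13068 genes (0% higher and 0% lower). At an unadjusted p under 0.05 it gave 1 of the 30, Hsd17b7, and 421 genes over all, and DESeq2 called 0.

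These counts depend on the scaling. TMM factors were 1.24 to 1.28 in unstimulated libraries and 0.83 to 0.86 with LPS, so scaling by library size alone shifts the median of all genes by -0.59 in B6 and -0.58 in T169A for LPS against unstimulated. On that scale the synthesis genes split into 3 higher and 11 lower in B6, and into 3 and 12 in T169A, against 15.3% of all genes higher and 64.9% lower in B6 and 14.8% and 62.0% in T169A. Hmgcs1 and Srebf2 were higher in both, Idi1 in B6 and Acat2 in T169A, while Insig1 (0.12 in B6, 0.23 in T169A) passed in neither. Pmvk, Sqle, Msmo1, Nsdhl, Ebp and Stard4, not called by TMM, were lower in both. For the LXR genes the split was 0 higher and 8 lower in each genotype. A difference between 2 genes within a library does not move with the scaling.

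The regulators of the synthesis program come first. Srebf2 (ENSMUSG00000022463.9), which encodes SREBP2 itself, was measured in B6 at 149, 132 and 110.2 CPM unstimulated, 267, 257 and 275 CPM with LPS and 232, 229 and 268 CPM with LPS/5z7. Levels in T169A were 117, 123 and 119 CPM unstimulated, 213, 227 and 219.6 CPM with LPS and 189, 222 and 209.5 CPM with LPS/5z7. In each genotype every stimulated library was above every unstimulated one. The log2 fold change with LPS was 1.03 ± 0.10 (SE) in B6 (adjusted p = 1.08e-07) and 0.88 ± 0.10 in T169A (adjusted p = 7.80e-07). Srebf2 stayed called higher when scaled by library size alone.

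Insig1, which retains SCAP in the endoplasmic reticulum and is itself a target of SREBP2, was at 66.9, 64.5 and 87.4 CPM unstimulated, 115, 116 and 127 CPM with LPS and 89.5, 84.9 and 96.5 CPM with LPS/5z7 in B6. The T169A levels were 57.9, 70.8 and 67.7 CPM unstimulated, 115, 117 and 114 CPM with LPS and 94.2, 87.7 and 90.5 CPM with LPS/5z7. LPS libraries were highest in both genotypes, LPS/5z7 libraries lay between them and the unstimulated ones in T169A, and in B6 the LPS/5z7 range overlapped the highest unstimulated library, library 7. Insig1 rose with LPS by a log2 fold change of 0.72 ± 0.11 in B6 (adjusted p = 1.41e-05) and 0.82 ± 0.11 in T169A (adjusted p = 3.23e-06). Stard4, which carries sterol between membranes, did not pass, at -0.01 ± 0.11 in B6 and -0.14 ± 0.11 in T169A.

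The enzymes of the mevalonate branch moved in both directions. Hmgcs1 (ENSMUSG00000093930.3), which makes HMG-CoA, was at 70.2, 82.7 and 69.8 CPM unstimulated, 139, 139.8 and 135 CPM with LPS and 128, 126 and 131 CPM with LPS/5z7 in B6. T169A libraries had 59.6, 68.3 and 66.3 CPM unstimulated, 122, 127 and 109 CPM with LPS and 114, 123 and 117 CPM with LPS/5z7. All stimulated libraries of both genotypes lay above all unstimulated ones, with a log2 fold change for LPS of 0.89 ± 0.08 in B6 (adjusted p = 6.69e-08) and 0.89 ± 0.08 in T169A (adjusted p = 7.40e-08). Idi1, the isomerase that makes dimethylallyl diphosphate, was at 3.47, 5.53 and 4.30 CPM unstimulated, 10.3, 9.77 and 9.09 CPM with LPS and 9.18, 8.88 and 10.3 CPM with LPS/5z7 in B6. Its T169A levels were 3.50, 3.89 and 4.08 CPM unstimulated, 7.19, 6.70 and 5.95 CPM with LPS and 5.94, 6.35 and 5.57 CPM with LPS/5z7. Idi1 rose in both, by 1.12 ± 0.14 in B6 (adjusted p = 2.19e-06) and 0.80 ± 0.15 in T169A (adjusted p = 1.58e-04), with the T169A value at 0.21 and not called by library size alone. The stimulated T169A libraries were all below the stimulated B6 libraries. Acat2, the thiolase at the entry of the pathway, was at 3.19, 3.49 and 4.25 CPM unstimulated, 4.68, 5.32 and 6.92 CPM with LPS and 6.38, 5.98 and 7.13 CPM with LPS/5z7 in B6. It was at 2.84, 3.26 and 3.39 CPM unstimulated, 5.31, 7.60 and 6.14 CPM with LPS and 5.86, 6.25 and 6.55 CPM with LPS/5z7 in T169A. The groups with and without LPS did not overlap, and the log2 fold change was 0.62 ± 0.17 in B6, where it was 0.028 and not called by library size alone, and 0.99 ± 0.17 in T169A.

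Mvd, the decarboxylase that makes isopentenyl diphosphate, the substrate of Idi1, moved the other way. It was at 16.8, 14.1 and 21.6 CPM unstimulated, 6.80, 6.86 and 7.70 CPM with LPS and 9.82, 9.47 and 12.3 CPM with LPS/5z7 in B6. For T169A the levels were 13.0, 14.9997 and 16.97 CPM unstimulated, 5.76, 6.45 and 9.12 CPM with LPS and 8.74, 11.6 and 10.3 CPM with LPS/5z7. Every stimulated library was below every unstimulated one of its genotype, and the LPS libraries were lowest in B6. The log2 fold change with LPS was -1.30 ± 0.18 in B6 (adjusted p = 8.21e-06) and -1.09 ± 0.18 in T169A (adjusted p = 6.34e-05). Mvk, mevalonate kinase, also fell, at -0.74 ± 0.18 in B6 and -0.57 ± 0.18 in T169A, and the T169A call was lost without library 11 (adjusted p = 0.0714). Pmvk, the kinase between Mvk and Mvd, was not called, at -0.23 ± 0.17 in B6 and -0.02 ± 0.17 in T169A. The step from mevalonate to isopentenyl diphosphate therefore held 2 genes that fell and 1 that was not called, in either genotype.

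From the making of farnesyl diphosphate to the demethylation of lanosterol, Lss and Cyp51 were called in opposite directions. Lss, lanosterol synthase, closes the sterol ring and was at 17.5, 17.6 and 14.4 CPM unstimulated, 7.40, 7.49 and 8.78 CPM with LPS and 10.3, 10.1 and 10.2 CPM with LPS/5z7 in B6. It was at 15.2, 15.2 and 16.1 CPM unstimulated, 7.03, 6.64 and 5.43 CPM with LPS and 7.23, 9.84 and 9.98 CPM with LPS/5z7 in T169A. The unstimulated libraries were highest without overlap, and LPS lowered Lss, at -1.08 ± 0.13 in B6 (adjusted p = 1.18e-06) and -1.28 ± 0.13 in T169A (adjusted p = 1.99e-07). Cyp51, the demethylase that acts next on lanosterol, was at 35.4, 37.7 and 40.5 CPM unstimulated, 60.9, 63.5 and 59.0 CPM with LPS and 51.9, 46.5 and 53.1 CPM with LPS/5z7 in B6. The T169A levels were 27.5, 32.9 and 32.8 CPM unstimulated, 42.4, 44.9 and 41.0 CPM with LPS and 37.9, 41.1 and 41.0 CPM with LPS/5z7. Cyp51 rose with LPS by 0.69 ± 0.09 in B6 (adjusted p = 1.90e-06) and 0.46 ± 0.09 in T169A (adjusted p = 1.91e-04) on the TMM scale, whereas by library size alone it was 0.10 in B6 and -0.12 in T169A, not called. Fdps, Fdft1 and Sqle, which make farnesyl diphosphate, squalene and its epoxide, were not called in either genotype, with log2 fold changes from -0.14 (Sqle in T169A) to 0.31 (Fdft1 in B6). Fdft1 was called by DESeq2 in B6 (0.35, adjusted p = 0.0351) and when 1 unstimulated library was left out, at 0.42 without library 7 in B6 (adjusted p = 0.0164) and 0.48 without library 16 in T169A (adjusted p = 0.00617). Fdft1 shares 774 exon bases with Ctsb on the opposite strand, which had 5471210 counts over all libraries against 6419 for Fdft1, so its counts are uncertain.

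The enzymes after lanosterol were split in the same way. Dhcr7, which makes cholesterol in the last step of 1 branch, was at 16.99, 16.7 and 17.4 CPM unstimulated, 9.04, 9.34 and 9.25 CPM with LPS and 10.9, 8.94 and 11.2 CPM with LPS/5z7 in B6. Levels in T169A were 17.6, 18.8 and 19.7 CPM unstimulated, 9.07, 8.94 and 10.7 CPM with LPS and 9.76, 10.8 and 14.1 CPM with LPS/5z7. All stimulated libraries were below all unstimulated ones, and the log2 fold change with LPS was -0.89 ± 0.12 in B6 (adjusted p = 7.73e-06) and -0.97 ± 0.12 in T169A (adjusted p = 2.87e-06). Sc5d, the desaturase just before Dhcr7, was at 25.6, 26.1 and 28.5 CPM unstimulated, 39.2, 36.1 and 41.1 CPM with LPS and 30.4, 31.0 and 27.9 CPM with LPS/5z7 in B6. It was at 21.4, 24.2 and 24.0 CPM unstimulated, 31.0, 30.2 and 29.4 CPM with LPS and 23.0, 22.2 and 24.6 CPM with LPS/5z7 in T169A. Sc5d rose with LPS on the TMM scale, by 0.54 ± 0.08 in B6 and 0.38 ± 0.08 in T169A, and changed sign by library size alone, to -0.053 and -0.20, the T169A value being called lower (adjusted p = 0.0399). Hsd17b7, the ketoreductase of C4 demethylation, was at 6.70, 8.54 and 4.95 CPM unstimulated, 10.6, 9.30 and 9.64 CPM with LPS and 6.56, 6.45 and 7.07 CPM with LPS/5z7 in B6. T169A libraries had 5.65, 7.81 and 6.85 CPM unstimulated, 7.44, 6.07 and 5.75 CPM with LPS and 4.81, 4.97 and 4.17 CPM with LPS/5z7. With LPS, Hsd17b7 was called in B6 alone, at 0.53 ± 0.16 on the TMM scale (adjusted p = 0.00966). By library size alone it was at -0.058 in B6 and not called. The call was also lost without libraries 7, 8 and 9 (0.37, adjusted p = 0.0511), which were left out together after the data were seen.

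Msmo1, Nsdhl and Ebp, which demethylate and isomerise sterol intermediates, were not called with LPS, with Nsdhl at -0.02 ± 0.09 in B6 and -0.04 ± 0.09 in T169A. Msmo1, one of the most abundant synthesis genes not called, was at 61.1, 63.0 and 74.0 CPM unstimulated, 66.2, 67.6 and 69.9 CPM with LPS and 64.3, 66.2 and 70.0 CPM with LPS/5z7 in B6. It was at 52.3, 57.6 and 60.7 CPM unstimulated, 52.5, 61.2 and 58.6 CPM with LPS and 58.6, 59.7 and 62.9 CPM with LPS/5z7 in T169A, and the ranges of the 3 conditions overlapped in each genotype. Ebp, the other, was at 30.4, 32.9 and 48.1 CPM unstimulated, 30.8, 32.2 and 39.2 CPM with LPS and 33.2, 32.7 and 33.2 CPM with LPS/5z7 in B6 and its log2 fold change with LPS was -0.12 ± 0.14. In T169A Ebp was at 35.3, 32.7 and 36.0 CPM unstimulated, 32.2, 36.2 and 39.6 CPM with LPS and 34.8, 39.0 and 38.0 CPM with LPS/5z7, with a log2 fold change of 0.05 ± 0.14. Per kilobase of exon, averaged over the 6 groups, the synthesis genes ranged from 29.9 CPM for Insig1 and 27.5 CPM for Srebf2 to 1.01 CPM for Lss, and the lowest count of a synthesis gene in any library was 68 reads, for Hsd17b7. Exon length here merges all annotated exons of a gene, 10787 bases for Lss, so the order depends on it. In CPM, Lss lay at 5.43 to 17.6 over the libraries, and Acat2 at 2.84 to 7.60.

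**Figure D1:**
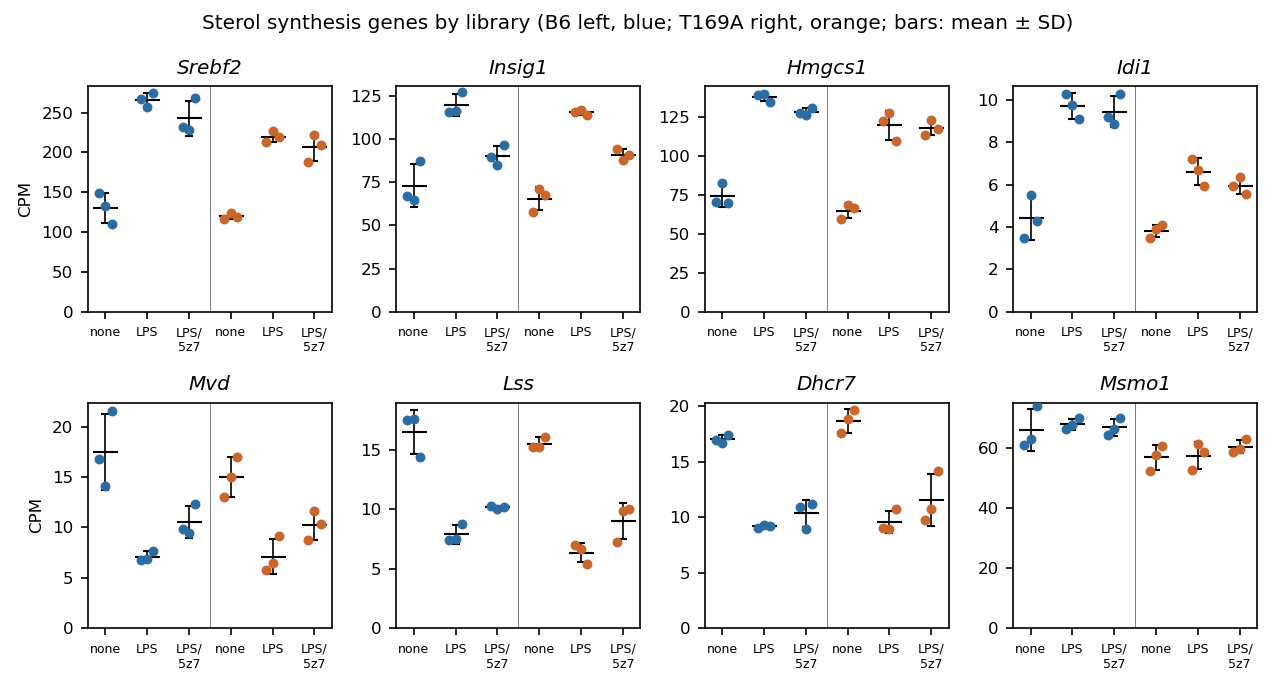
Level in CPM (y axis, from 0) of 8 sterol synthesis genes in each of the 18 libraries, by treatment (x axis) and genotype. Points are libraries and bars are mean ± SD; Srebf2, Insig1, Hmgcs1 and Idi1 are lowest on average without stimulation, Mvd, Lss and Dhcr7 are highest without it, and Msmo1 overlaps across conditions within a genotype. By library size alone Insig1 with LPS/5z7 in B6 is at -0.12 against unstimulated.

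Among the LXR genes, the cholesterol exporters differed. Abcg1 (ENSMUSG00000024030.8), which moves cholesterol to high density lipoprotein, was at 202, 199 and 141 CPM unstimulated, 82.9, 85.5 and 74.9 CPM with LPS and 113, 108 and 103 CPM with LPS/5z7 in B6. For T169A the levels were 228, 192 and 188 CPM unstimulated, 99.6, 87.3 and 86.6 CPM with LPS and 137, 133 and 131 CPM with LPS/5z7. The 3 conditions did not overlap in either genotype, with unstimulated libraries highest and LPS libraries lowest. The log2 fold change with LPS was -1.15 ± 0.12 in B6 (adjusted p = 2.13e-07) and -1.15 ± 0.12 in T169A (adjusted p = 2.17e-07). Abca1, which loads cholesterol onto apolipoprotein A-I, was the most abundant gene of both sets per kilobase of exon, with a mean over groups of 127.7 CPM per kilobase. It was at 1265, 1411 and 514 CPM unstimulated, 1747, 1571 and 1148 CPM with LPS and 1475, 1558 and 1479 CPM with LPS/5z7 in B6. The T169A levels were 1338, 1199 and 1017 CPM unstimulated, 1845, 1235 and 1038 CPM with LPS and 1458, 1295 and 1229 CPM with LPS/5z7. Libraries varied widely within a group, and library 7 was lowest of all. Abca1 was not called with LPS, at 0.49 ± 0.28 in B6 (adjusted p = 0.136) and 0.21 ± 0.28 in T169A (adjusted p = 0.523), and it was called in B6 without library 4 (0.74, adjusted p = 0.0374). Abca1 has 10363 exon bases, and the low value of long genes in library 7 moves with its low Abca1. Its part in the result was not tested.

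Mylip (ENSMUSG00000038175.11), the ubiquitin ligase that degrades lipoprotein receptors, was at 175, 174 and 119 CPM unstimulated, 58.0, 58.6 and 54.6 CPM with LPS and 95.9, 97.6 and 92.2 CPM with LPS/5z7 in B6. Levels in T169A were 178, 157 and 153 CPM unstimulated, 57.1, 51.5 and 54.1 CPM with LPS and 77.3, 92.8 and 92.9 CPM with LPS/5z7. As with Abcg1, the conditions did not overlap and LPS was lowest. LPS lowered Mylip, at -1.45 ± 0.12 in B6 (adjusted p = 1.72e-08) and -1.58 ± 0.12 in T169A (adjusted p = 5.80e-09). Nr1h3, the gene of the receptor LXR alpha, was at 47.5, 48.8 and 68.0 CPM unstimulated, 28.4, 30.0 and 36.8 CPM with LPS and 44.4, 45.6 and 48.8 CPM with LPS/5z7 in B6. It was at 44.0, 40.6 and 43.4 CPM unstimulated, 25.8, 29.8 and 32.7 CPM with LPS and 40.1, 45.1 and 50.7 CPM with LPS/5z7 in T169A. The LPS libraries were below the others of their genotype, with a log2 fold change of -0.79 ± 0.14 in B6 (adjusted p = 8.06e-05) and -0.54 ± 0.14 in T169A (adjusted p = 0.00257).

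Scd2 and Acsl3, of lipid metabolism, also fell. Scd2, a stearoyl-CoA desaturase, was the least abundant member per kilobase, with counts down to 15 reads in a library. It was at 9.76, 8.54 and 6.83 CPM unstimulated, 2.60, 2.60 and 1.17 CPM with LPS and 2.35, 2.25 and 2.73 CPM with LPS/5z7 in B6. T169A libraries had 6.31, 7.50 and 7.06 CPM unstimulated, 2.12, 2.68 and 1.23 CPM with LPS and 1.66, 1.84 and 1.78 CPM with LPS/5z7. Unstimulated libraries were above all others, and the log2 fold change with LPS was -1.91 ± 0.23 in B6 (adjusted p = 1.40e-06) and -1.78 ± 0.24 in T169A (adjusted p = 5.19e-06). Acsl3, which activates long chain fatty acids, was at 17.5, 19.2 and 18.1 CPM unstimulated, 6.24, 6.30 and 5.05 CPM with LPS and 4.93, 4.08 and 4.93 CPM with LPS/5z7 in B6. It was at 14.6, 17.6 and 16.0 CPM unstimulated, 6.82, 6.51 and 5.88 CPM with LPS and 5.22, 3.84 and 4.84 CPM with LPS/5z7 in T169A. Again all unstimulated libraries were highest, and LPS lowered Acsl3, at -1.62 ± 0.12 in B6 (adjusted p = 3.52e-09) and -1.32 ± 0.12 in T169A (adjusted p = 5.37e-08). Acsl3 shares 244 exon bases with Utp14b on the same strand.

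Srebf1, the gene of SREBP1, which drives fatty acid synthesis, was the LXR gene called higher. It was at 70.3, 63.5 and 60.9 CPM unstimulated, 82.0, 83.7 and 91.1 CPM with LPS and 79.0, 83.7 and 84.1 CPM with LPS/5z7 in B6. For T169A the levels were 66.6, 62.2 and 64.5 CPM unstimulated, 77.8, 81.2 and 93.9 CPM with LPS and 76.7, 86.5 and 80.3 CPM with LPS/5z7. Its log2 fold change with LPS was 0.40 ± 0.09 in B6 (adjusted p = 5.75e-04) and 0.39 ± 0.09 in T169A (adjusted p = 7.79e-04), and by library size alone it was -0.19 in each, so its direction depends on the scaling. Abca1, Acsl3 and Srebf1, the members with an LXR element among the promoters read, thus included 1 gene that was not called, 1 that fell and 1 called higher on the TMM scale. For Srebf1 the element was at 1 of its annotated starts and absent from the others. Its counts are per gene and do not separate the starts.

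Lpcat3 and Pltp, which act on phospholipids and lipoproteins, and Smpdl3a were not called with LPS in either genotype. Smpdl3a was at 249.5, 245 and 236 CPM unstimulated, 217, 229 and 189 CPM with LPS and 204, 198 and 174 CPM with LPS/5z7 in B6. The T169A levels were 236, 226 and 232 CPM unstimulated, 216, 215 and 232 CPM with LPS and 208, 203 and 224 CPM with LPS/5z7. Its log2 fold change was -0.20 ± 0.08 in B6 (adjusted p = 0.0510, and called without library 5 at -0.26, adjusted p = 0.0291, or without library 7 at -0.22, adjusted p = 0.0343) and -0.06 ± 0.08 in T169A. Lpcat3 was at 0.09 ± 0.07 in B6 and -0.03 ± 0.07 in T169A.

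**Figure D2:**
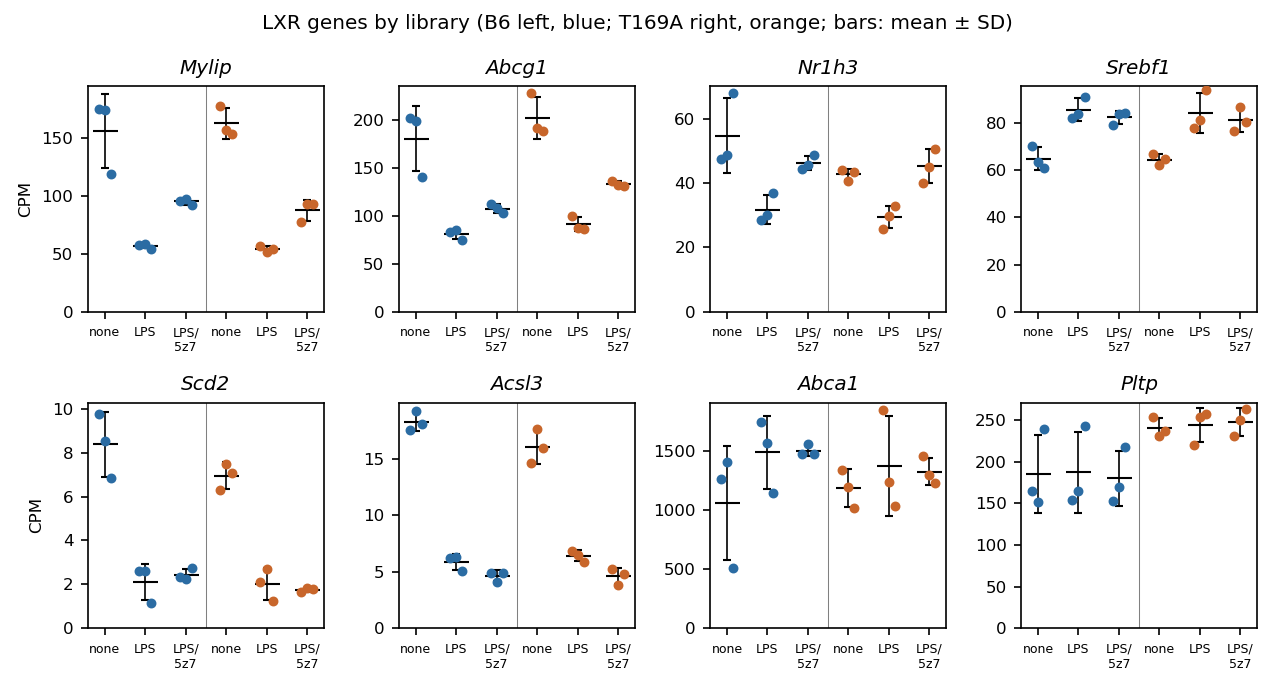
Level in CPM (y axis, from 0) of 8 LXR genes in each of the 18 libraries, by treatment (x axis) and genotype, with bars at mean ± SD. Mylip and Abcg1 are highest without stimulation, lowest with LPS and between them with LPS/5z7, whereas Scd2 and Acsl3 are low with both treatments; 3 B6 libraries of Pltp lie at 217 to 242 CPM, within or near the T169A range.

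The effect of 5z7 was read from LPS/5z7 against LPS. These comparisons share their LPS libraries with those above, so that values are given side by side. In both genotypes the LXR genes Mylip, Abcg1 and Nr1h3, lowered by LPS, were higher with LPS/5z7 than with LPS, and the synthesis genes Insig1 and Sc5d were lower. Scd2 was not called, and Acsl3 moved further down in T169A. In B6, 0 of 20 synthesis genes were called higher and 4 lower, and of 10 LXR genes 3 were higher and 0 lower, against 7.03% of all genes higher and 6.79% lower. DESeq2 called 1 synthesis gene higher, Mvd. For T169A the counts were 1 synthesis gene higher and 2 lower, with 3 LXR genes higher and 1 lower, against 6.50% and 6.53% of all genes. Median log2 fold changes lay near 0 for both sets: -0.03 and -0.00 for synthesis and LXR genes in B6, -0.02 and -0.01 in T169A, with 0.02 for all genes in each. By library size alone, which shifts all genes by a median of 0.16 in each genotype, no synthesis gene was lower, and 3 were higher in B6 (Mvd, Lss and Stard4) and 4 in T169A (the same with Dhcr7), against 17.9% of all genes higher and 3.95% lower in B6 and 16.7% and 4.06% in T169A.

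Mylip, at 58.0, 58.6 and 54.6 CPM with LPS and 95.9, 97.6 and 92.2 CPM with LPS/5z7 in B6, rose by 0.74 ± 0.12 (adjusted p = 5.74e-04). In T169A its rise was 0.69 ± 0.12 (adjusted p = 0.00104). These calls held when any 1 library was left out. Nr1h3 rose by 0.55 ± 0.14 in B6 (adjusted p = 0.0131) and 0.62 ± 0.14 in T169A (adjusted p = 0.00608), and Abcg1 by 0.41 ± 0.12 in B6 (adjusted p = 0.0300) and 0.55 ± 0.12 in T169A (adjusted p = 0.00497). The T169A calls of Nr1h3 and Abcg1 held without any 1 library. Leaving out 1 library also lowered calls over all genes. In B6 they went from 919 higher and 887 lower to 471 to 605 higher and 629 to 733 lower. T169A went from 850 and 853 to 449 to 795 and 560 to 839. In B6, the Nr1h3 call was lost without library 2 (0.45, adjusted p = 0.0777), library 5 (0.49, adjusted p = 0.0694) or library 9 (0.49, adjusted p = 0.0608). The Abcg1 call in B6 was lost without any 1 of the 6 libraries (adjusted p from 0.0664 to 0.144) or with DESeq2's size factors (0.37, adjusted p = 0.0522). Acsl3 went from 6.82, 6.51 and 5.88 CPM to 5.22, 3.84 and 4.84 CPM in T169A, a change of -0.47 ± 0.13 (adjusted p = 0.0284) that was not called without library 11, 14, 15 or 18 (adjusted p up to 0.151) or by library size alone (-0.31, adjusted p = 0.111). In B6 the Acsl3 change was -0.35 ± 0.13 and was not called. Scd2, at 0.13 ± 0.26 in B6 and -0.20 ± 0.28 in T169A, and Abca1, at 0.01 ± 0.28 and -0.05 ± 0.28, were not called.

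Of the synthesis genes, Sc5d fell, at -0.38 ± 0.08 in B6 (adjusted p = 0.00401) and -0.38 ± 0.08 in T169A (adjusted p = 0.00509), and kept both calls without any 1 library, though neither by library size alone (-0.22 in each, adjusted p = 0.0791 and 0.0833). Insig1 fell, at -0.41 ± 0.11 in B6 (adjusted p = 0.0162) and -0.34 ± 0.11 in T169A (adjusted p = 0.0389). The B6 call was lost without library 3 (-0.40, adjusted p = 0.0539) or library 6 (-0.39, adjusted p = 0.0599), and the T169A call without any 1 of its 6 libraries (adjusted p from 0.0529 to 0.136). By library size alone Insig1 was at -0.24 and -0.19, not called. Hsd17b7 changed by -0.56 ± 0.17 in B6 (adjusted p = 0.0354), a call lost without any 1 library (adjusted p from 0.0602 to 0.112), and by -0.47 ± 0.18 in T169A, not called. Cyp51 changed by -0.28 ± 0.09 in B6 (adjusted p = 0.0396), which was lost without library 2, 3, 5 or 6 (adjusted p up to 0.137). Lss changed by 0.48 ± 0.14 in T169A (adjusted p = 0.0258), lost without library 14, 15, 17 or 18 (adjusted p up to 0.132). The abundant Srebf2 and Hmgcs1 were not called: Srebf2 was at -0.13 ± 0.10 in B6 and -0.09 ± 0.10 in T169A, and Hmgcs1 at -0.10 ± 0.08 and -0.02 ± 0.08. Mvd was at 0.57 ± 0.19 in B6 (adjusted p = 0.0528) and 0.53 ± 0.19 in T169A (adjusted p = 0.0761), and was called without library 17 in T169A (0.73, adjusted p = 0.0223). The test of the difference between genotypes called 0 of the 30 and 0% of all genes in either direction. At an unadjusted p under 0.05 it gave 0 of the 30 and 151 genes over all, and DESeq2 called 0.

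Against unstimulated cells, LPS/5z7 left 6 synthesis genes higher and 4 lower in B6, and 1 LXR gene higher and 5 lower, with 27.6% and 27.9% of all genes called higher and lower. In T169A 6 synthesis genes were higher and 4 lower, and 1 LXR gene was higher and 4 lower, with 28.1% and 27.5% of all genes. The genes higher in both genotypes were Acat2, Cyp51, Hmgcs1, Idi1, Insig1 and Srebf2 among the synthesis genes and Srebf1 among the LXR genes. By library size alone, Cyp51 and Srebf1 changed sign in both genotypes, at -0.012 and -0.085 in B6 and -0.062 and -0.090 in T169A, and Insig1 in B6, at -0.12. On that scale the synthesis genes split into 4 higher and 12 lower in B6 and 3 and 10 in T169A, and the LXR genes into 0 and 8 in B6 and 0 and 7 in T169A, against 15.9% of all genes higher and 56.1% lower in B6 and 15.1% and 53.6% in T169A. Under TMM scaling, Dhcr7, Lss and Mvd among the synthesis genes and Abcg1, Acsl3, Mylip and Scd2 among the LXR genes were lower in both. Acsl3 had a log2 fold change of -1.97 ± 0.13 in B6 and -1.79 ± 0.13 in T169A, Scd2 of -1.78 ± 0.23 and -1.98 ± 0.24, and Mylip of -0.71 ± 0.12 and -0.89 ± 0.12. Nr1h3 was not called, at -0.24 ± 0.14 in B6 and 0.08 ± 0.14 in T169A. Calls made in a single genotype were Mvk and Smpdl3a in B6, at -0.54 ± 0.18 and -0.34 ± 0.09, and Hsd17b7 in T169A, at -0.54 ± 0.17. Calls that depended on a library were Insig1 in B6, lost without library 1, 4 or 9 (adjusted p up to 0.0993), Mvk in B6, lost without library 3, 6 or 7 (adjusted p up to 0.0991), Hsd17b7 in T169A, lost without library 13 (adjusted p = 0.0787), and Mvd in T169A, lost without library 12 or 16 (adjusted p = 0.0612 and 0.0534). The test of the difference between genotypes called 0 of the 30 and 0% of all genes in either direction. At an unadjusted p under 0.05 it gave Idi1 and 461 genes over all, and DESeq2 called 0 of the 30 and 2 genes over all.

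The lists were set against each other in each library, as the mean log2 CPM of the 20 synthesis genes minus that of the 10 LXR genes. This value does not depend on the scaling between libraries, and it is given with no test because the members were chosen with results known. In B6 it was -2.19, -2.09 and -1.77 unstimulated, -1.36, -1.37 and -1.16 with LPS and -1.43, -1.49 and -1.42 with LPS/5z7. In T169A it was -2.37, -2.16 and -2.06 unstimulated, -1.65, -1.51 and -1.43 with LPS and -1.71, -1.57 and -1.64 with LPS/5z7. By these means all stimulated libraries were above all unstimulated ones of their genotype. The mean difference between LPS and unstimulated was 0.72 in B6 and 0.67 in T169A, and that between LPS/5z7 and LPS was -0.15 and -0.11. With medians over members in place of means the first became 0.56 and 0.44 and the second -0.47 and -0.37. Stimulated and unstimulated libraries then overlapped: in B6, library 7 was at -1.95 against -1.97, -2.15 and -2.11 with LPS/5z7, and in T169A library 16 was at -2.20 against -2.28, -2.25 and -2.29. The parts of the LPS difference were 0.11 for the synthesis mean and -0.61 for the LXR mean in B6, and 0.08 and -0.59 in T169A, on the TMM scale. Without Srebf1, Scd2 and Acsl3, genes of fatty acid metabolism, the difference between LPS and unstimulated was 0.52 in B6 and 0.53 in T169A. That between LPS/5z7 and unstimulated was then 0.29 and 0.27. In B6 these conditions then overlapped, with library 6 (LPS/5z7) at -2.67 and library 7 (unstimulated) at -2.64.

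**Figure D3:**
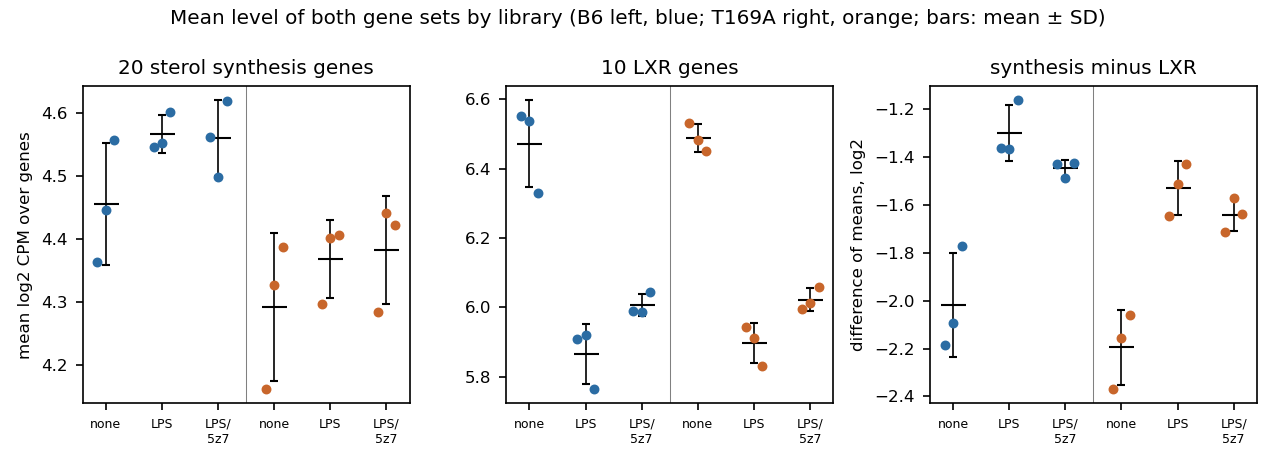
Mean log2 CPM (y axes) of the synthesis genes and of the LXR genes, and their difference, in each of the 18 libraries by treatment (x axis) and genotype, with bars at mean ± SD. The LXR mean drops by 0.61 in B6 and 0.59 in T169A between unstimulated and LPS on the TMM scale, on which the synthesis mean is 0.11 and 0.08 higher (by library size alone it is lower). The difference between the sets is higher in every stimulated library than in the unstimulated ones of its genotype. For LPS/5z7 this does not hold with medians, nor in B6 without Srebf1, Scd2 and Acsl3.

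Between the genotypes, 1 of the 30 genes was called. Cyp51 was lower in T169A with LPS, at 42.4, 44.9 and 41.0 CPM against 60.9, 63.5 and 59.0 CPM in B6, a log2 fold change of -0.52 ± 0.09 (adjusted p = 0.0110 by edgeR). The groups did not overlap in any of the 3 conditions, with values of -0.28 ± 0.09 (adjusted p = 0.461) unstimulated and -0.34 ± 0.09 (adjusted p = 0.258) with LPS/5z7. The call with LPS was lost without library 2 (-0.53, adjusted p = 0.0528), library 5 (-0.49, adjusted p = 0.0964) or library 17 (-0.49, adjusted p = 0.0833), and when the 2 groups were fitted alone (-0.51, adjusted p = 0.122). Cyp51 shares 166 exon bases with Akap9 on the opposite strand.

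The share of all genes called was 0.0765% higher and 0.138% lower in T169A unstimulated, 0.0842% higher and 0.138% lower with LPS, and 0.0612% higher and 0.0995% lower with LPS/5z7. Unstimulated, 0 of the 30 were called by edgeR and 0 by DESeq2, with 8 at an unadjusted p under 0.05. With LPS, 11 had an unadjusted p under 0.05, and DESeq2 called 2, Cyp51 and Sc5d. With LPS/5z7, edgeR called 0, 10 had an unadjusted p under 0.05, and DESeq2 called 3, Idi1, Cyp51 and Sc5d. Of all 13068 genes, 694 had an unadjusted p under 0.05 unstimulated, 729 with LPS and 766 with LPS/5z7. DESeq2 called 69 of all genes unstimulated, 56 with LPS and 47 with LPS/5z7. Most synthesis genes had lower values in T169A without passing the test: 2 of 20 were above 0 unstimulated, 5 with LPS and 4 with LPS/5z7, with medians of -0.20, -0.22 and -0.17, against medians of -0.00, 0.00 and 0.00 over all genes. Sc5d was at -0.36 ± 0.08 with LPS (adjusted p = 0.123) and -0.36 ± 0.08 with LPS/5z7 (adjusted p = 0.145). Idi1 was at -0.55 ± 0.14 with LPS (adjusted p = 0.224) and -0.66 ± 0.14 with LPS/5z7 (adjusted p = 0.0828).

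Pltp, which transfers phospholipid between lipoproteins, was at 165, 152 and 239 CPM unstimulated, 154, 164 and 242 CPM with LPS and 153, 169.1 and 217 CPM with LPS/5z7 in B6. Levels in T169A were 253, 230.3 and 236 CPM unstimulated, 219.9, 254 and 258 CPM with LPS and 230.4, 249.6 and 264 CPM with LPS/5z7. Libraries 7, 8 and 9, the last of each B6 triplet, lay near the T169A level, and the other 6 B6 libraries were lower without overlap. The genotype difference was 0.37 ± 0.18 unstimulated, 0.38 ± 0.18 with LPS and 0.46 ± 0.18 with LPS/5z7, not called. Without libraries 7, 8 and 9, an alternative chosen after seeing the data, it was 0.60, 0.61 and 0.62, with adjusted p = 0.00188, 0.00128 and 0.00169. Stard4 was then called lower in T169A unstimulated (-0.39, adjusted p = 0.04998) and with LPS (-0.43, adjusted p = 0.0225), and Sc5d with LPS/5z7 (-0.40, adjusted p = 0.0239). Calls over all genes rose as well, from 10 higher and 18 lower to 24 and 52 unstimulated. They rose from 11 and 18 to 87 and 73 with LPS, and from 8 and 13 to 57 and 45 with LPS/5z7. Pltp shares 495 exon bases with Ctsa on the opposite strand, which had 454788 counts over all libraries against 81090 for Pltp. What sets libraries 7, 8 and 9 apart was not tested.

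Other genes of the pathway were read from lists of 60 named genes, of which 57 were tested. Their counts stand against the same shares of all genes as those above: for LPS, 29.6% higher and 33.5% lower (B6) and 30.3% and 31.5% (T169A), and for LPS/5z7 against LPS 7.03% and 6.79% in B6 and 6.50% and 6.53% in T169A. Ch25h, the enzyme that makes 25-hydroxycholesterol, an LXR ligand and suppressor of SREBP2, was at 0.858, 1.03 and 0.914 CPM unstimulated, 92.9, 98.9 and 139.9 CPM with LPS and 26.4, 28.8 and 30.7 CPM with LPS/5z7 in B6. T169A libraries had 0.783, 0.510 and 0.490 CPM unstimulated, 67.1, 77.1 and 93.0 CPM with LPS and 24.0, 16.9 and 18.2 CPM with LPS/5z7. Ch25h rose with LPS by 6.86 ± 0.23 in B6 (adjusted p = 1.25e-13) and 7.04 ± 0.24 in T169A (adjusted p = 1.53e-13), and was lower with LPS/5z7 than with LPS, at -1.95 ± 0.16 in B6 (adjusted p = 4.13e-07) and -1.997 ± 0.17 in T169A (adjusted p = 3.62e-07). Of 11 tested genes of oxysterols, sterol storage and release, LPS gave 6 higher and 3 lower in B6 (all genes: 29.6% and 33.5%), and 5 and 3 in T169A. Gramd1a, which carries cholesterol from the plasma membrane, rose by 2.49 ± 0.23 in B6, while Soat1, which esterifies cholesterol for storage, and Nceh1, which releases it, fell, at -1.02 ± 0.13 and -0.94 ± 0.15. With LPS/5z7 against LPS, Ch25h was the 1 gene called in this list in either genotype, lower in each.

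Among 12 LXR partners and corepressors, LPS gave 3 higher and 5 lower in B6, close to the 29.6% and 33.5% of all genes, and 3 and 6 in T169A. Rxra, the RXR partner of LXR, was at 168.5, 174 and 131 CPM unstimulated, 49.2, 45.4 and 37.9 CPM with LPS and 52.4, 50.5 and 46.0 CPM with LPS/5z7 in B6. It was at 178, 174 and 177 CPM unstimulated, 48.8, 48.5 and 45.1 CPM with LPS and 52.3, 51.1 and 53.0 CPM with LPS/5z7 in T169A. Rxra fell with LPS, at -1.83 ± 0.11 in B6 (adjusted p = 1.36e-10) and -1.89 ± 0.11 in T169A (adjusted p = 9.31e-11), and it was not called between LPS/5z7 and LPS, unlike Mylip and Abcg1 in the same libraries. Rxrb, a second RXR gene, fell, at -0.95 ± 0.11 in B6, and Nrip1, a corepressor, and Med1, a coactivator, rose by 1.09 ± 0.21 and 0.82 ± 0.17. With LPS/5z7 against LPS, 0 of the 12 were called in B6 and 1, Rxrb, was higher in T169A (0.36 ± 0.11, adjusted p = 0.0353).

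Of 10 SREBP processing genes, LPS gave 4 higher and 1 lower in B6 (all genes: 29.6% and 33.5%), and 4 and 2 in T169A. Rnf139, a ligase of the sterol-regulated degradation machinery, was the largest, at 35.4, 33.6 and 33.5 CPM unstimulated, 89.7, 92.0 and 101 CPM with LPS and 79.7, 84.6 and 88.7 CPM with LPS/5z7 in B6 and a log2 fold change of 1.46 ± 0.10. Ubxn4 rose by 0.59 ± 0.08 on the TMM scale, about the 0.59 by which TMM and library size scaling differ. Tmem97, which binds sterol, fell, at -0.50 ± 0.12. With LPS/5z7 against LPS, 2 were lower in B6, Insig2 at -0.39 ± 0.12 and Ubxn4 at -0.26 ± 0.08, and 0 were called in T169A. Of 12 genes of the late sterol and isoprenoid branch, 2 were higher and 3 lower with LPS in each genotype, fewer than the shares of all genes. Pdss1, which makes the side chain of ubiquinone, rose by 1.81 ± 0.15 in B6 and Nus1, which serves dolichol synthesis, by 0.53 ± 0.09, while Fnta, a farnesyltransferase subunit, and Pdss2, the partner of Pdss1, fell, at -0.46 ± 0.09 and -0.46 ± 0.15. With LPS/5z7 against LPS, Pdss1 was lower in B6 (-0.48 ± 0.14, adjusted p = 0.0294) and 0 were called in T169A.

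Of 12 tested genes of fatty acid synthesis and desaturation, 1 was higher and 4 lower with LPS in each genotype, against 29.6% and 33.5% of all genes in B6. Lpin1, a phosphatidate phosphatase and SREBP target, was at 32.6, 32.0 and 24.5 CPM unstimulated, 5.16, 4.85 and 4.97 CPM with LPS and 2.49, 3.85 and 3.33 CPM with LPS/5z7 in B6. Lpin1 fell, at -2.57 ± 0.14 with LPS and was lower again with LPS/5z7, at -0.65 ± 0.16 in B6 (adjusted p = 0.0115) and -0.77 ± 0.15 in T169A (adjusted p = 0.00272). Gpam, which starts glycerolipid synthesis, fell, at -1.04 ± 0.15 with LPS in B6 and rose with LPS/5z7 against LPS, by 0.90 ± 0.15 in B6 (adjusted p = 7.20e-04) and 0.89 ± 0.16 in T169A (adjusted p = 9.55e-04). Elovl5, a fatty acid elongase, rose by 0.28 ± 0.09 with LPS in B6 on the TMM scale, which like the rise of Nus1 is less than the 0.59 by which the scalings differ.

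**Figure D4:**
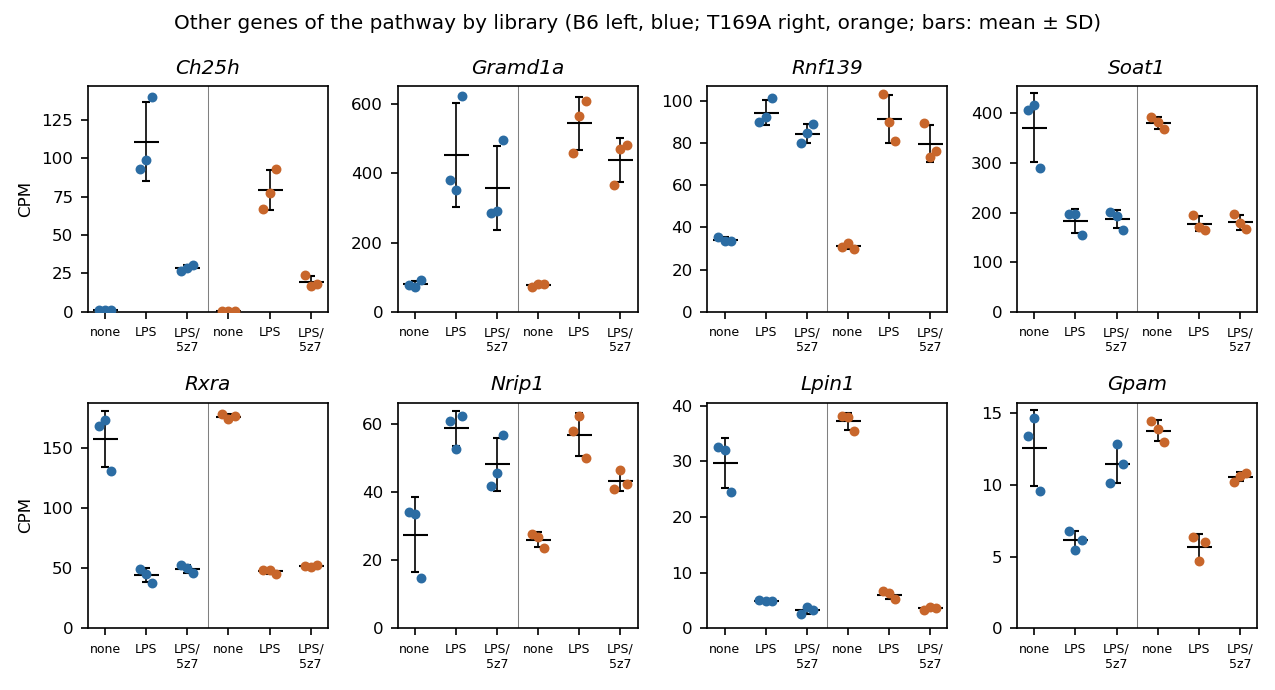
Level in CPM (y axis, from 0) of 8 other genes of the pathway in each of the 18 libraries, by treatment (x axis) and genotype, with bars at mean ± SD. Ch25h is at about 1 CPM or less without stimulation, highest with LPS and lower with LPS/5z7, and Rxra, Soat1 and Lpin1 are highest without stimulation.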

How the data were processed

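The authors deposited raw read counts per gene for 18 libraries. Per the labels' protocols, total RNA was made into directional TruSeq libraries, and per the submitters' processing notes Trim Galore, STAR, featureCounts and GRCm39 were used; versions and the strand setting are not given in the sources used here. Symbols came from unversioned Ensembl IDs (52029 of 56953 IDs, 99.8% of counts). Columns were matched to groups by name. Counts were filtered (filterByExpr), TMM-scaled and tested with edgeR 4.0.16 (R 4.3.3): quasi-likelihood, 6 group means, Benjamini-Hochberg over 13068 genes, threshold 0.05. Log2 CPM used a prior count of 2. Members and lists were chosen with earlier results of these data known. All members are named, with library values for the largest called changes and the most abundant uncalled members. Other pathway genes are named for the largest called changes in B6. Alternatives were DESeq2 1.42.0, other scalings and filters, the compared groups alone, a replicate block and leaving out libraries.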

Additional observations from a re-analysis of the deposited data

How the results depend on the processing

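Precision is limited by 3 libraries a group, and the lowest member count was 15 reads. Below, counts are members called. Scaling by library size alone gave the most changes. Against unstimulated, synthesis genes higher and lower numbered 3 and 11 (B6 LPS), 3 and 12 (T169A LPS) and 3 and 10 (T169A LPS/5z7), with 12 lower in B6 LPS/5z7. LXR genes higher were 0 in all 4 comparisons, and LXR genes lower were 8, or 7 for T169A LPS/5z7. Against LPS, LPS/5z7 gave 3 synthesis genes higher and 0 lower in B6, 4 and 0 in T169A, and 0 LXR genes lower in T169A. The log2 fold changes that changed sign and passed the test on TMM or on this scale were Hsd17b7 (-0.058), Sc5d (-0.053), Srebf1 (-0.19), Msmo1 (-0.55), Lpcat3 (-0.50) and Pltp (-0.58) for B6 LPS. For T169A LPS they were Cyp51 (-0.12), Sc5d (-0.20), Srebf1 (-0.19), Msmo1 (-0.57), Ebp (-0.53) and Pltp (-0.56). Against unstimulated, they were Cyp51 (-0.012), Insig1 (-0.12), Srebf1 (-0.085), Msmo1 (-0.41), Nsdhl (-0.33), Sc5d (-0.27) and Lpcat3 (-0.35) for B6 LPS/5z7, and Cyp51 (-0.062), Srebf1 (-0.090), Msmo1 (-0.34), Sc5d (-0.42), Stard4 (-0.28), Nr1h3 (-0.34) and Lpcat3 (-0.38) for T169A LPS/5z7. No other alternative gave such a change of sign.

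For B6 LPS/5z7 against LPS, synthesis genes higher were 1 by DESeq2, 1 with no filter and 2 with the groups alone. In T169A they were 2 with no filter, 0 with the groups alone and 3 without libraries 7, 8 and 9, synthesis genes lower were 1 with no filter, and LXR genes lower were 0 with no filter and with the groups alone. Over all genes in B6, DESeq2 gave 873 higher and 1215 lower, no filter 591 and 794, and the groups alone 1078 and 1308. In T169A no filter gave 703 and 678, the groups alone 562 and 816, and leaving out libraries 7, 8 and 9 1352 and 1350. Between genotypes with LPS, members called were 2 by DESeq2, 0 with the groups alone and 3 without libraries 7, 8 and 9. With LPS/5z7 they were 3, 2 and 2, and unstimulated they were 2 without libraries 7, 8 and 9. Over all genes with LPS, DESeq2 called 18 higher and 38 lower. The groups alone gave 4 and 9, and leaving out libraries 7, 8 and 9 gave 87 and 73. With LPS/5z7 the same alternatives gave 17 and 30, 53 and 170, and 57 and 45. Unstimulated, leaving out these libraries gave 24 and 52. The reported fit gave 11 and 18 with LPS, 8 and 13 with LPS/5z7, and 10 and 18 unstimulated. The cause was not tested.

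Leaving out 1 library gave, for B6 LPS/5z7 against LPS, 1 to 3 synthesis genes lower and 1 to 2 LXR genes higher. For T169A it gave 0 to 1 synthesis genes higher, 1 to 1 lower and 0 to 1 LXR genes lower. Calls over all genes fell too, in B6 from 919 higher and 887 lower to 471 to 605 and 629 to 733. In T169A they fell from 850 and 853 to 449 to 795 and 560 to 839. LXR genes higher were 1 to 2 for B6 LPS and for B6 LPS/5z7 against unstimulated, and members called between genotypes with LPS were 0 to 1. Over all genes, B6 LPS gave 3627 to 4129 higher and B6 LPS/5z7 against unstimulated 3252 to 3808. Between genotypes with LPS, 6 to 12 of all genes were higher and 10 to 21 lower.

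The replicate block used sets of 3 consecutive library numbers, since the deposited columns carry no letter of the titles. Deviations of 2 libraries of a set correlated at -0.05 to 0.46, over 0.1 in 11 of 18 pairs, with a median of 0.13 against -0.08 between sets, and 12 of 18 libraries correlated best within their own set. Deviations were taken from the group mean and cancel out within a group. Positive values within sets thus force negative ones between sets, and the -0.08 is not a separate baseline. As not every pair was over 0.1, the pairing was not taken into the reported fits. With the block, LXR genes higher were 2 for B6 LPS and for B6 LPS/5z7 against unstimulated, and synthesis genes higher for LPS/5z7 against LPS were 1 in B6 and 2 in T169A. Members called with the block and not in the fit without it were Abca1 (adjusted p = 0.0247), Fdft1 (0.0384) and Smpdl3a (0.0137) for B6 LPS, Fdft1 (0.0444) for T169A LPS, and Mvd for LPS/5z7 against LPS in B6 (0.00638) and T169A (0.00715). Against unstimulated, they were Fdft1, Sqle, Stard4, Abca1 and Nr1h3 for B6 LPS/5z7 and Mvk for T169A LPS/5z7. No call of a member was lost. The block raised calls over all genes as well. For B6 LPS they went from 3868 higher and 4372 lower to 4147 and 4641. B6 LPS/5z7 against unstimulated went from 3610 and 3647 to 3963 and 3958. LPS/5z7 against LPS went from 919 and 887 to 1236 and 1211 in B6. In T169A that comparison went from 850 and 853 to 1166 and 1174.

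The synthesis minus LXR level, as a median over members, was -1.61 (B6 LPS), -2.08 (B6 LPS/5z7), -1.90 (T169A LPS) and -2.27 (T169A LPS/5z7). Without Srebf1, Scd2 and Acsl3 it was -2.89, -2.37 and -2.60 in B6 and -3.14, -2.61 and -2.87 in T169A (unstimulated, LPS, LPS/5z7). By medians, LPS/5z7 exceeded unstimulated by 0.10 in B6 and 0.07 in T169A, against 0.57 and 0.55 by means. Without Srebf1, Scd2 and Acsl3 the means gave 0.29 and 0.27.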
